A study of Mus musculus with 6 samples.

Results

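The 10 genes described here, Bnc1, Bnc2, Wt1, Lhx9, Lhx2, Gata4, Gata6, Nr2f2, Emx2 and Tcf21, encode transcription factors of the coelomic epithelium, the embryonic lining of the body cavity, and of the surface of the gonad. All 24 probe sets annotated to exactly 1 of these symbols were taken, of 45037 probe sets on the array, whatever their values. Levels were measured in primary ovarian surface epithelium (OSE) cells of virgin FVB/N mice aged 8 weeks, the cell layer that covers the ovary, after 24 hours in culture. The groups were ALDH-positive OSE cells (3 samples) and ALDH-negative OSE cells (3 samples), separated by flow cytometry on ALDEFLUOR fluorescence, a measure of aldehyde dehydrogenase (ALDH) activity, with inhibitor-treated and unstained cells as controls for the sort. The cells came from 3 pools, each of 10 mice and each hybridized as 1 ALDH-positive and 1 ALDH-negative array, so a value stands for a pool and not for an animal. No gene was altered and no strain differed between the fractions. Below, a level is a log2 signal after quantile normalization, a difference is ALDH-positive minus ALDH-negative on that scale, and the number of arrays limits the precision.

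The surface of the ovary derives from the coelomic epithelium of the genital ridge. In the mouse embryo Wt1, Lhx9, Gata4 and Emx2 are needed for this epithelium to thicken and form a gonad, and Wt1 stays on in the mesothelium of the adult. Gata4, Gata6 and Nr2f2 are also used by granulosa, theca or stromal cells, and Tcf21 belongs mainly to mesenchyme below the epithelium. In bulk samples such as these, more cells of a type and more RNA per cell cannot be told apart.

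Promoters of the 3 genes of largest difference for which a sequence was at hand are shown, each from 250 bases before to 50 bases after the gene's start. They come from RefSeq on GRCm38.p6 and are written 5′ to 3′ on the gene's strand. The Bnc1 window is chr7:81992250-81992549 on the minus strand, the Lhx9 window chr1:138842395-138842694 on the minus strand and the Emx2 window chr19:59458440-59458739 on the plus strand. Capitals mark matches, on either strand, to any of 7 motifs: the GATA site AGATAA, the LIM homeodomain site TAATTA, the nuclear receptor element AGGTCA, the E-box CAGCTG, the WT1 site GCGTGGGNG, the GC box GGGCGG and the TATA box TATAAA.
Bnc1: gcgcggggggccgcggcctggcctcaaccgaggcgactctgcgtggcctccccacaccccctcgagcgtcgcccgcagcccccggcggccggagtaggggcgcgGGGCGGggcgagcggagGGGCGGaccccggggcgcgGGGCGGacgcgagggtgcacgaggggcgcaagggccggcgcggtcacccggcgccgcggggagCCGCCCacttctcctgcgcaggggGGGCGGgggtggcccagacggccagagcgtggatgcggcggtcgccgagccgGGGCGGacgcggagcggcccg
Lhx9: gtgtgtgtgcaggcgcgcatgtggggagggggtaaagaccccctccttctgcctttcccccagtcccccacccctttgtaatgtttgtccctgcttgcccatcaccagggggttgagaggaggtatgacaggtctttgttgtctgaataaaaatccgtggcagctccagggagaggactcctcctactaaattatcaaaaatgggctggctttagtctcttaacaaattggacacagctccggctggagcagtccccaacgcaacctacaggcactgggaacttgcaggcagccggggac
Emx2: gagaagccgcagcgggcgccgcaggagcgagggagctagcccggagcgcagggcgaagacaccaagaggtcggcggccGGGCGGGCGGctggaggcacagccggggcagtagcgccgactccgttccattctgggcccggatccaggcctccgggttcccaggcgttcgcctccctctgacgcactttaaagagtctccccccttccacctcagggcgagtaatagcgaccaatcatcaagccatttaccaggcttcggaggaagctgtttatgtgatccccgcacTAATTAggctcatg

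The Bnc1 window held 6 GC boxes, which 35.7% of all 32851 promoters of this length hold at least once, and none of the other motifs. Its GC content was 83.3%, against a median of 52.7% over all promoters. The Emx2 window held 2 GC boxes that overlap each other and 1 LIM homeodomain site, a motif found in 5.29% of all promoters. The Lhx9 window, at a GC content of 55.3%, held none of the 7 motifs in these letters. Among the other members with a sequence, the Bnc2 window held 1 LIM homeodomain site, the Tcf21 window 1 GATA site (11.2% of all promoters) and 1 of the 2 Lhx2 windows 4 GC boxes. The Nr2f2 window and the other Lhx2 window held none. The nuclear receptor element and the E-box, each in 16.3% of all promoters, the TATA box (13.6%) and the WT1 site (1.90%) were found in no member's window. A match describes letters in a window and does not show binding.

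One array stood apart before any comparison. The ALDH-negative array of pool 2 correlated with the others at 0.561 to 0.688 across probe sets, while the others correlated with each other at 0.845 to 0.974. Its beta-actin control probe set (3′) read 5.03 as deposited, against 9.56 to 11.04 on the other arrays. The 3′ set of Gapdh was closer, at 10.07, against 10.22 to 11.25 on the others. The 5′ control probe set of Gapdh read 5.20 on the ALDH-positive and 6.63 on the ALDH-negative array of pool 3, while it read 7.92 to 10.30 in pools 1 and 2. Pool 3 thus had weak Gapdh signal away from the 3′ end. For beta-actin the 5′ set of that pool read 9.40 and 8.58, closer to the 10.18 and 9.56 of its 3′ set. The middle beta-actin set was lower, at 8.54 and 7.73 in pool 3. It read 10.69 to 11.12 in pool 1 and on the ALDH-positive array of pool 2. The 5′ set of 18S ribosomal RNA read 8.76 and 6.91 in pool 3, against 10.35 and 8.66 for its 3′ set. Values without pool 2 are given beside the differences of the members' brighter probe sets and the medians of the lists.

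Bnc1, a zinc finger factor of epithelia, and 1 probe set of Lhx9, a LIM homeodomain factor of the early gonad, separated the fractions most widely among the 24 probe sets, whereas the brightest Lhx9 probe set overlapped between them. Wt1 separated them in each pool by a smaller step. Emx2 and Gata6 read higher in ALDH-positive cells of each pool, and Gata4 and Nr2f2 were measurable in both fractions with smaller or uneven differences. Lhx2 and Tcf21 stayed near the lower end of the scale on all 6 arrays. Of the 24 probe sets, 19 had a higher mean in ALDH-positive cells, as 44.5% of all probe sets did, and 5 a lower one. The higher ones were the only sets whose direction held in all pools (13 of 24), against 9.90% of all 45037 probe sets that were higher in all 3 pools. In 11 of the 24 every ALDH-positive array lay above every ALDH-negative one, against 3.23% of all probe sets. The median difference of the 24 was 0.96, beside -0.07 over all probe sets, with 0.40, 1.92 and 0.64 in pools 1, 2 and 3. Without pool 2 the median was 0.70 (0.01 over all probe sets), and 14 of the 24 were higher in both remaining pools, against 25.8% of all probe sets. With the ALDH-negative array of pool 2 alone left out, 12 did not overlap, against 7.96%. The members were chosen with earlier results of these data known, so these shares describe them and do not test them.

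**Figure D1:**
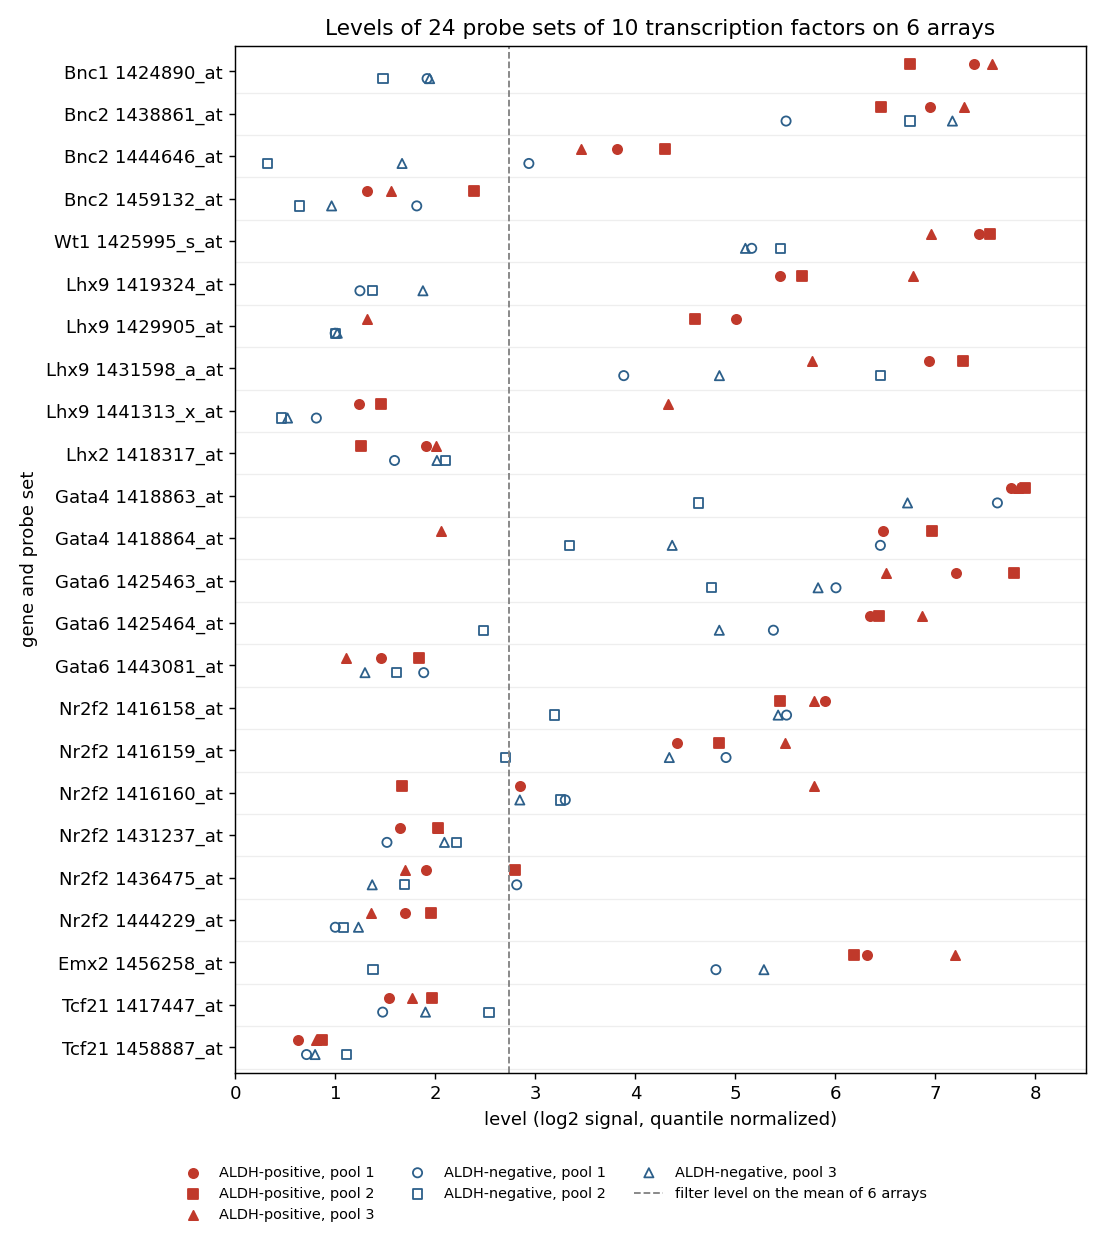
Level (log2 signal, quantile normalized) of the 24 probe sets on the 6 arrays. Filled red symbols are ALDH-positive and open blue symbols ALDH-negative cells, with circles, squares and triangles for pools 1, 2 and 3, and the dashed line is the filter level of 2.73 on the mean of 6 arrays. Bnc1, Wt1 and the first Lhx9 probe set show a gap between the fractions, while Lhx2 and Tcf21 stay to the left of the line in both.

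Each difference was tested with limma in 1 fit over the 6 arrays, with pool as a block. The fit used the 27022 probe sets above a log2 mean of 2.73, a filter that removed the dimmest 40%. Of the members' 24 probe sets, 14 passed this filter and 10 did not. The set nearest above it was Bnc2 1444646_at with a mean of 2.75, and the nearest below was Lhx9 1429905_at with 2.32. After Benjamini-Hochberg adjustment no member passed the threshold of 0.05, and neither did any other probe set (percent called 0). At an unadjusted p under 0.05 there were 6 member probe sets, all higher in ALDH-positive cells, beside 2.04% of tested probe sets that were higher and 0.403% that were lower at this p. Among these 6, Bnc1, Lhx9 1419324_at and Bnc2 1444646_at averaged 1.78, 1.50 and 1.64 in ALDH-negative cells. They passed the filter only through their ALDH-positive levels, so the filter in part fixed their direction, and the count is no support for it. With 3 pairs the smallest exact two-sided permutation p for a single value is 0.25, so that none was computed.

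Bnc1 was represented by 1 probe set, 1424890_at. Its levels were 7.39, 6.74 and 7.57 in ALDH-positive cells of pools 1, 2 and 3, against 1.92, 1.47 and 1.94 in ALDH-negative cells. The fractions were far apart in every pool, and the ALDH-negative levels lay below the filter level, so that the fold is against background. On the array-wide scale the probe set averaged percentile 93.2 in ALDH-positive cells, against percentile 24.1 in ALDH-negative cells. The fit gave the 43.9-fold difference a log2 value of 5.45 (95% interval 3.97 to 6.93), which was 5.55 without pool 2. Its unadjusted p of 4.01e-05 was the lowest of the 27022 probe sets (limma adjusted p = 0.765). Without pool 1 it passed the threshold (limma adjusted p = 0.0452), one of 4 probe sets higher then (0.0148% of those tested). That fit rested on pools 2 and 3, and pool 2 holds the array that stood apart. It gave every member probe set it tested the same SE (1.24), so its p follows the size of the difference and not the gene's own spread. Over the other pools Bnc1 was not called. Over all alternatives its difference stayed between 5.30 and 5.85 while the limma adjusted p ranged between 5.22e-07 and 0.945. The lowest of these came with array weights, a fit that rested mainly on pool 3 and called 8 member probe sets higher and 1 lower, beside 5.47% of tested probe sets called higher.

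Bnc2, the paralogue of Bnc1 and a zinc finger factor of skin and mesenchyme, had 3 probe sets that did not behave alike. The brightest, 1438861_at, read 6.95, 6.45 and 7.28 in ALDH-positive cells, against 5.51, 6.75 and 7.17 in ALDH-negative cells. Both fractions were bright there and overlapped, with a difference of 0.42 (95% interval -1.19 to 2.03), which was -0.092 without pool 1 and 0.78 without pool 2. The scaling moved this value too, to 0.95 as deposited, where each pool was higher in ALDH-positive cells (1.33, 1.15 and 0.38), and to 1.12 after median-centring. The second, 1444646_at, read 3.82, 4.30 and 3.45 in ALDH-positive cells, above the 2.93, 0.32 and 1.67 in ALDH-negative cells. Its difference of 2.22 (95% interval 0.37 to 4.06, limma adjusted p = 0.895) was 1.34 without pool 2. The third, 1459132_at, was dim, at 1.32, 2.39 and 1.56 in ALDH-positive cells, against 1.81, 0.64 and 0.96 in ALDH-negative cells, and was not tested. Bnc2 was thus bright in ALDH-negative cells by its main probe set, whereas Bnc1 was not above the filter level there.

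Wt1, a zinc finger factor of the gonad, kidney and mesothelium, read 7.43, 7.54 and 6.95 in ALDH-positive cells of pools 1, 2 and 3. In ALDH-negative cells it read 5.16, 5.45 and 5.10. The fractions did not overlap, and unlike Bnc1 the gene was well above the filter level in both. The difference was 2.07, a 4.20-fold step (95% interval 0.59 to 3.55, unadjusted p = 0.0126, limma adjusted p = 0.895). The pools gave 2.27, 2.09 and 1.85, and without pool 2 the mean was 2.06, so that the array that stood apart did not set it. The SD of these 3 values was 0.21, against 0.18 for Bnc1 and 1.80 for Emx2. As deposited the pools differed more, with 2.20, 3.09 and 2.21 for Wt1, and SDs of 0.51 for Wt1, 0.50 for Bnc1 and 1.71 for Emx2.

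Lhx9 had 4 probe sets, all higher in ALDH-positive cells of each pool but by unequal amounts. Probe set 1419324_at read 5.45, 5.66 and 6.77 in ALDH-positive cells, against 1.24, 1.37 and 1.87 in ALDH-negative cells. The gap was 4.20, 4.29 and 4.90 in pools 1, 2 and 3, a mean of 4.47 or 22.1-fold (95% interval 2.97 to 5.96), and 4.55 without pool 2. This probe set had the 5th lowest unadjusted p of the table (0.000166, limma adjusted p = 0.819). Here too the ALDH-negative level is background. Probe set 1431598_a_at was bright in both fractions, with 6.94, 7.28 and 5.77 in ALDH-positive cells, against 3.88, 6.45 and 4.84 in ALDH-negative cells. These ranges overlapped, and the difference was 1.60 (95% interval -0.11 to 3.32, limma adjusted p = 0.895), or 1.99 without pool 2. As deposited they did not overlap, at 5.74 to 7.65 in ALDH-positive cells, against 4.00 to 5.47 in ALDH-negative cells, with a difference of 2.18.

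The 2 dim probe sets of Lhx9 split the pools. Probe set 1429905_at read 5.01 and 4.59 in ALDH-positive cells of pools 1 and 2 but 1.31 in pool 3, against 1.00, 1.00 and 1.02 in ALDH-negative cells. Probe set 1441313_x_at went the other way, with 1.23 and 1.45 in ALDH-positive cells of pools 1 and 2 and 4.32 in pool 3, against 0.81, 0.46 and 0.52 in ALDH-negative cells. The differences were 2.63 and 1.74, with SDs over pools of 2.04 and 1.81. Pool 3 was also the pool of weak 5′ Gapdh signal, and the part of this in the split was not tested. Where the probe sets lie on the transcript was not analysed here.

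Lhx2, a LIM homeodomain relative of Lhx9 best known from forebrain, eye and hair follicle, had 1 probe set. It read 1.91, 1.26 and 2.00 in ALDH-positive cells, against 1.59, 2.10 and 2.01 in ALDH-negative cells. All readings lay below the filter level, and the difference of -0.18 was within the SD of the pool values (0.60) and turned to 0.15 without pool 2. No level of Lhx2 above background was seen in either fraction by this probe set, in contrast to the levels of Lhx9 in ALDH-positive cells.

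Emx2, a homeodomain factor of the urogenital system, read 6.31, 6.19 and 7.20 in ALDH-positive cells of pools 1, 2 and 3. In ALDH-negative cells it read 4.80, 1.37 and 5.28, the low value being that of the array that stood apart. The fractions did not overlap with or without that array. The difference of 2.74 (95% interval 0.80 to 4.68, unadjusted p = 0.0120, limma adjusted p = 0.895) rested partly on pool 2, where it was 4.81, and was 1.71 without it. In pools 1 and 3 Emx2 differed by 1.51 and 1.91.

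Gata4 and Gata6, zinc finger factors that act in gonadal somatic cells, were bright in both fractions. Gata4 by 1418863_at read 7.76, 7.89 and 7.83 in ALDH-positive cells, which is a range of little width, and 7.62, 4.63 and 6.72 in ALDH-negative cells. The fractions were closest in pool 1, where the difference was 0.14, and were 3.26 and 1.11 apart in pools 2 and 3. The mean of 1.50 (95% interval -0.35 to 3.35) was 0.62 without pool 2, and as deposited the fractions overlapped. The second Gata4 probe set, 1418864_at, read 6.47, 6.96 and 2.06 in ALDH-positive cells, against 6.45, 3.34 and 4.37 in ALDH-negative cells. It was lower in ALDH-positive cells of pool 3 (-2.31), the pool in which the first probe set was higher, and its mean of 0.45 became -1.14 without pool 2.

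Gata6 by 1425463_at read 7.20, 7.78 and 6.50 in ALDH-positive cells, against 6.005, 4.76 and 5.83 in ALDH-negative cells. The second bright probe set, 1425464_at, read 6.35, 6.44 and 6.87 in ALDH-positive cells, against 5.38, 2.48 and 4.84 in ALDH-negative cells. Neither overlapped, and the differences were 1.63 (95% interval -0.08 to 3.34) and 2.32 (95% interval 0.50 to 4.14, limma adjusted p = 0.895). Without pool 2 they were 0.94 and 1.50. The third probe set, 1443081_at, was dim on all 6 arrays, with 1.10 to 1.83 in ALDH-positive cells, against 1.29 to 1.88 in ALDH-negative cells, and says nothing of the gene's level. The bright Gata6 probe sets therefore shared their direction in each pool, which those of Gata4 did not.

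Nr2f2, the orphan nuclear receptor COUP-TFII of mesenchyme and veins, had 6 probe sets, 3 of them tested. The brightest, 1416158_at, read 5.89, 5.44 and 5.79 in ALDH-positive cells. In ALDH-negative cells it read 5.51, 3.19 and 5.43. Outside pool 2 the fractions lay close together, and the difference of 1.00 (95% interval -0.66 to 2.66) was 0.37 without that pool. Probe set 1416159_at gave 0.93 (95% interval -0.81 to 2.67) and 0.33 without pool 2, with pool 1 in the opposite direction (-0.49). Probe set 1416160_at had a mean of 0.30 (1.24 without pool 2), with -0.46, -1.58 and 2.94 in pools 1, 2 and 3, with a level of 5.79 in ALDH-positive cells of pool 3 against 2.84 and 1.67 in pools 1 and 2.

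The 3 untested probe sets of Nr2f2 were dim. Their differences were -0.04 (1431237_at), 0.17 (1436475_at, -0.05 in the values as deposited and -0.29 without pool 2) and 0.56 (1444229_at). The last did not overlap, at 1.36 to 1.96 in ALDH-positive cells, against 1.00 to 1.23 in ALDH-negative cells, although all these levels lie below the filter level. Tcf21, a basic helix-loop-helix factor of gonadal and kidney mesenchyme, had 2 probe sets that stayed low on every array. By 1417447_at it read 1.54 to 1.97 in ALDH-positive cells, against 1.47 to 2.54 in ALDH-negative cells, and by 1458887_at 0.63 to 0.87 in ALDH-positive cells, against 0.71 to 1.11 in ALDH-negative cells. The differences of -0.21 and -0.11 were below the SDs over pools of 0.32 and 0.13, and were -0.03 and -0.04 without pool 2.

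**Figure D2:**
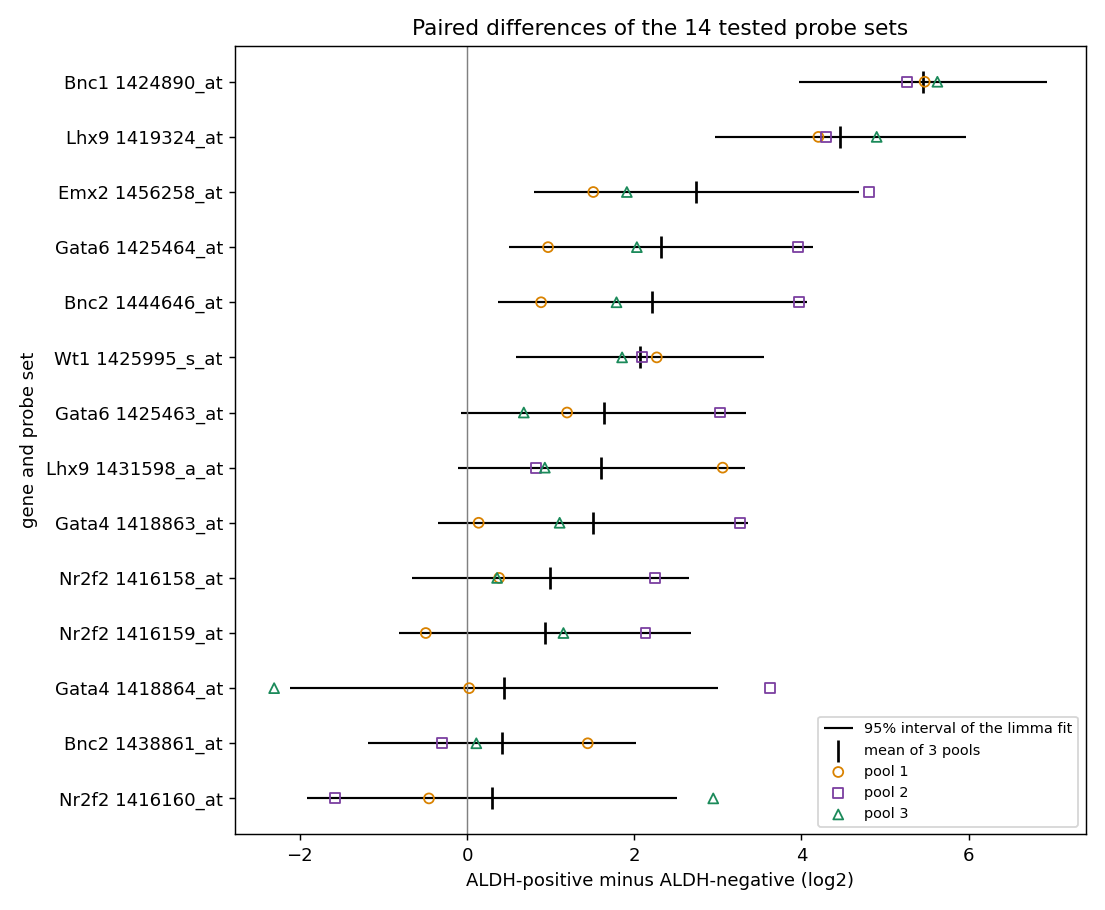
ALDH-positive minus ALDH-negative difference (log2) of the 14 tested probe sets. Open circles, squares and triangles are pools 1, 2 and 3, the black tick is their mean and the line the 95% interval of the limma fit. The pool values of Bnc1, Wt1 and Lhx9 1419324_at lie close together, while those of Gata4 1418864_at and Nr2f2 1416160_at fall on both sides of 0.

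The order of the mean levels in ALDH-positive cells, by each gene's brightest probe set, placed Gata4 (7.83 ± 0.07, SD, n = 3), Wt1 (7.31 ± 0.31), Bnc1 (7.23 ± 0.44), Gata6 (7.16 ± 0.64), Bnc2 (6.89 ± 0.42), Lhx9 (6.66 ± 0.79), Emx2 (6.57 ± 0.55) and Nr2f2 (5.71 ± 0.24) above Lhx2 and Tcf21. Signals of different probe sets are not on a common scale of abundance, so this order says only which probe sets were bright. In ALDH-negative cells the brightest probe sets averaged 6.47 ± 0.86 for Bnc2, 6.32 ± 1.53 for Gata4 and 5.53 ± 0.67 for Gata6. Among these 8 genes, Bnc1 was the one whose brightest probe set averaged below the filter level in ALDH-negative cells.

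**Figure D3:**
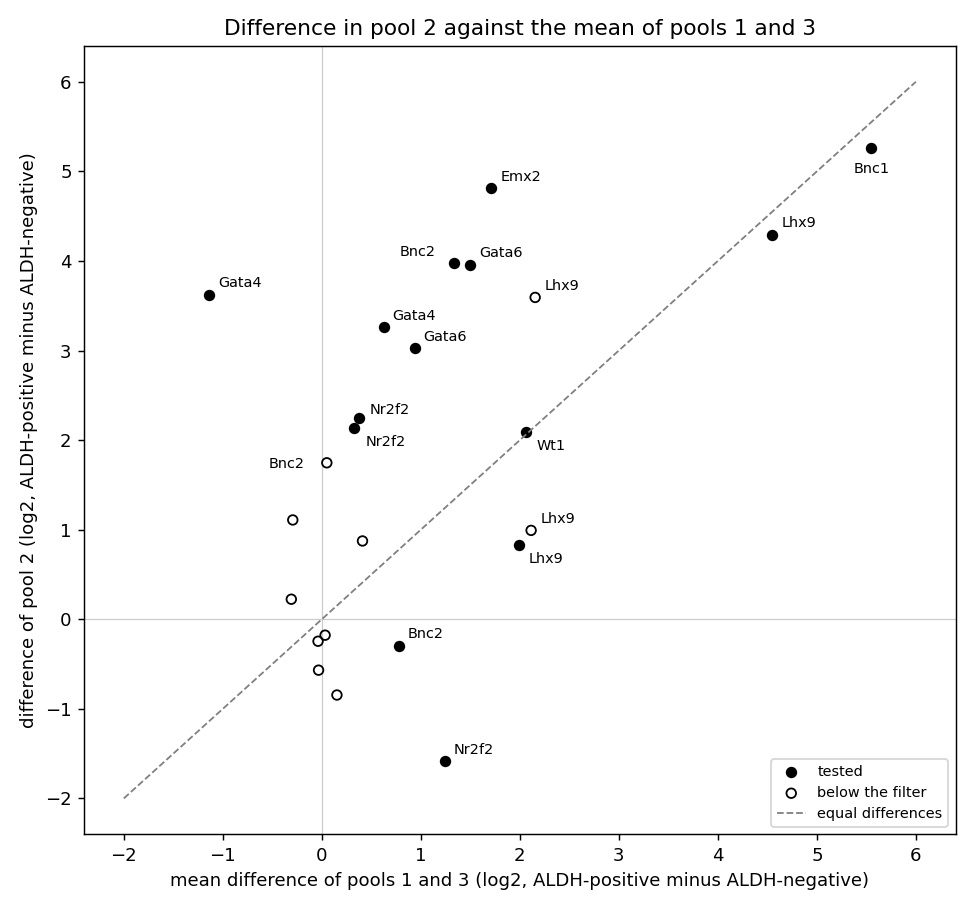
Difference in pool 2 (vertical axis) against the mean difference of pools 1 and 3 (horizontal axis), both log2 ALDH-positive minus ALDH-negative, for the 24 probe sets. Filled points were tested, open points lay below the filter, and the dashed line marks equal differences. Wt1, Bnc1 and Lhx9 1419324_at lie near the line, and both Gata4, both bright Gata6 and the Emx2 probe sets lie above it.

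The genes whose profile over the 6 arrays was most like that of Bnc1, among 12813 other genes with a tested probe set, were the myosin chaperone Unc45b (Pearson r = 0.994), the retinaldehyde dehydrogenase Aldh1a2 (0.994), the latent TGF-beta binding protein Ltbp2 (0.990), the membrane glycoprotein Gpm6a (0.988) and Cyria (0.988). Those most like Wt1 were the death receptor Fas (0.995), the uroplakin Upk1b (0.991), the zinc finger factor Zbtb7c (0.985), the lysyl oxidase relative Loxl1 (0.984) and the leucine zipper factor Maf (0.983). Each of these 10 genes read higher in ALDH-positive cells of every pool, which their choice by likeness to Bnc1 or Wt1 largely fixed. Unc45b, Aldh1a2, Ltbp2, Cyria and Fas averaged below the filter level in ALDH-negative cells. They passed the filter only through their ALDH-positive levels. Unc45b, for example, read 5.81, 5.75 and 6.47 in ALDH-positive cells, against 2.00, 1.83 and 2.47 in ALDH-negative cells. The likeness is a description over 6 arrays that share pools and the sort, and a high r follows whenever a gene separates the fractions evenly. Aldh1a2 encodes an enzyme of the activity that was sorted on, so its profile is not independent of the sort.

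Other regulators of the same tissues were measured as well. Of 20 further transcription factors of the early gonad, mesothelium and lateral mesoderm, 14 were tested, of which 6 read higher and 8 lower and none passed the threshold. Their median difference was -0.12, beside -0.04 over all tested probe sets, and 2 were higher in all pools, against 11.5% of all tested probe sets. The list's medians were 0.31, -0.81 and -0.15 in pools 1, 2 and 3, and without pool 2 the median was 0.26, with 9 higher and 5 lower. Those 2 were Tead1, a factor of the Hippo pathway (2.46, 0.80 without pool 2), and the homeodomain factor Irx3 (2.12, 0.80 without pool 2). Osr1, a zinc finger factor of intermediate mesoderm, was lower in each pool (-0.90, and -0.25 without pool 2).

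Among 11 paralogues of the members 8 were tested, with 3 higher, 5 lower, none past the threshold and a median of -0.28. The sign differed with pool 2, with medians of 0.39, -1.76 and -0.02 in pools 1, 2 and 3, and without it 6 were higher and 2 lower, at a median of 0.18. Gata3, a relative of Gata4 and Gata6 used by many epithelia, read 5.03, 5.03 and 7.03 in ALDH-positive cells, against 3.73, 3.90 and 5.18 in ALDH-negative cells. Its difference was 1.43 (SE 0.64, limma adjusted p = 0.895), and 1.58 without pool 2. Gata5 and the Tcf21 relative Msc differed by -0.74 and -1.03 over all pools and by 0.17 and -0.16 without pool 2.

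Of 15 partners and cofactors 12 were tested, 7 higher and 5 lower, with a median of 0.38 and none past the threshold, and without pool 2 there were 11 higher and 1 lower (median 0.34). Basp1, a corepressor that binds WT1, read 7.98, 7.93 and 8.61 in ALDH-positive cells, against 5.46, 2.65 and 7.31 in ALDH-negative cells. Its difference of 3.04 (SE 0.88, limma adjusted p = 0.895) was 1.91 without pool 2. The LIM-only protein Lmo4, which binds the same adaptor as LIM homeodomain factors, differed by 1.84 (SE 0.78), which was 1.01 in pools 1 and 3. Of 14 genes reported as targets of Wt1, 10 were tested, with 6 higher and 4 lower, a median of 0.41 (0.04 without pool 2) and none past the threshold. Aldh1a2 (5.17, SE 0.64) and the sialomucin Podxl (2.73, SE 0.69) were higher in each pool. Cdh1, the epithelial cadherin, differed by 1.98 (SE 0.80), with only 0.08 in pool 3. Without pool 2 these 3 genes differed by 4.94, 2.75 and 1.42. Aldh1a2 encodes an aldehyde dehydrogenase, the activity that the cells were sorted on, so its difference is not independent of the sort. The integrin subunit Itga4 had a lower mean (-0.86, SE 0.74, and -0.17 without pool 2).

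**Figure D4:**
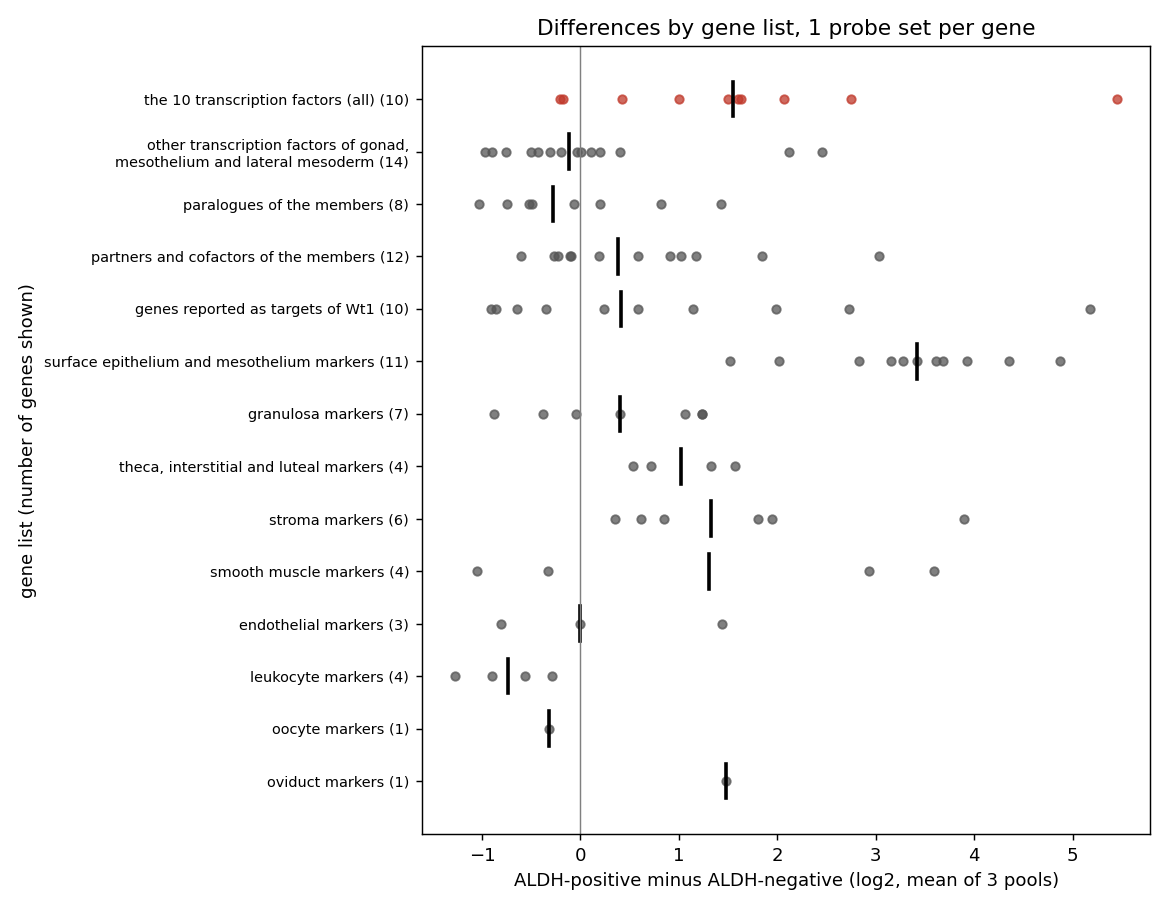
Mean ALDH-positive minus ALDH-negative difference (log2) of each gene, 1 probe set per gene, by list. Red points are the 10 transcription factors, untested ones included, grey points the tested genes of the other lists, and black ticks the medians. The surface epithelium and mesothelium markers lie farthest to the right, with a median of 3.42.

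The labelled cell type was checked against its markers. All 12 markers of surface epithelium and mesothelium read higher in ALDH-positive cells of each pool, with Krt19, an epithelial keratin, at 4.88 and Gpm6a at 4.36. The 11 tested ones had a median difference of 3.42 (3.60 without pool 2), and none passed the threshold. The summed linear signal of all 12 was 2154 to 2914 in ALDH-positive cells, against 247 to 489 in ALDH-negative cells, so that the markers of the labelled cell type moved with Bnc1, Lhx9 and Wt1. Some markers of other ovarian cells were present as well. The 8 granulosa markers summed to 969 to 1536 in ALDH-positive cells, against 168 to 2119 in ALDH-negative cells, none of them below the filter level on all arrays. The brightest were Inha and Inhba, which averaged 8.64 and 9.05 in ALDH-positive cells. Nr5a2 and Foxl2 averaged 7.01 and 5.48 there. Amh (3.58), Esr2 (3.86) and Hsd17b1 (4.05) were dimmer in these cells, and Fshr averaged 2.15, below the filter level. The 5 theca, interstitial and luteal markers summed to 3047 to 4595 in ALDH-positive cells, against 254 to 6794 in ALDH-negative cells. Of these, Fdx1, Hsd3b1, Cyp11a1 and Star averaged 10.67, 9.99, 9.55 and 7.87 in ALDH-positive cells. Their averages in ALDH-negative cells were 9.34, 9.28, 7.98 and 7.34. Cyp17a1 averaged 1.97 in ALDH-positive cells and exceeded the filter level only on the ALDH-negative array of pool 2 (2.82). In these 2 lists the lowest sum was that of the ALDH-negative array of pool 2, and their median differences in pools 1, 2 and 3 were -0.28, 2.66 and -0.30, and -0.60, 4.24 and -0.70. Without pool 2, 1 tested granulosa marker was higher and 6 were lower (median -0.17). The 4 tested theca, interstitial and luteal markers were then all lower (median -0.67).

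The 7 stroma markers summed to 945 to 1152 in ALDH-positive cells, against 116 to 399 in ALDH-negative cells (Lum below the filter level on all arrays), and the 5 smooth muscle markers to 1049 to 1352 in ALDH-positive cells, against 129 to 272 in ALDH-negative cells. In both lists a few genes carried the sums. Of the 6 tested stroma markers the collagen gene Col3a1 (3.90), Col1a1 (1.94) and Thy1 (1.80) were higher in each pool, whereas Dcn (0.85), Col1a2 (0.61) and Pdgfra (0.35) were lower in ALDH-positive cells of pool 3. Of the 4 tested smooth muscle markers the actin gene Acta2 (3.59) and Tagln (2.94) were higher in each pool, and Myh11 (-1.05) and Des (-0.33) had a lower mean. Without pool 2 Myh11 and Des differed by 0.07 and 0.62. The median differences were then 1.22 for the stroma and 1.79 for the smooth muscle markers. The sums of 4 other lists overlapped between the fractions. The 6 endothelial markers summed to 68.2 to 121 in ALDH-positive cells, against 61.2 to 202 in ALDH-negative cells, with Tek below the filter level throughout. For the 6 leukocyte markers the sums were 32.8 to 303 in ALDH-positive cells, against 58.6 to 327 in ALDH-negative cells, with Adgre1 below it throughout. The highest sum of each fraction was that of pool 3 and was mostly Csf1r. This gene read 8.06 and 8.18 there, against 2.76 to 4.96 in pools 1 and 2. The 5 oocyte markers gave 17.8 to 22.8 in ALDH-positive cells, against 17.5 to 42.0 in ALDH-negative cells, with Dazl, Ddx4 and Bmp15 below the filter level throughout. The 4 oviduct markers gave 55.1 to 281 in ALDH-positive cells, against 30.2 to 185 in ALDH-negative cells, with Foxj1 below it throughout. Epcam, at 7.80, 7.93 and 5.36 in ALDH-positive cells, made up most of the oviduct sums. Gata4, Gata6 and Nr2f2 are used by granulosa, theca or stromal cells too, and the part of these cells in their levels was not tested.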

How the data were processed

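The authors hybridized amplified, biotin-labelled cDNA to Affymetrix Mouse Genome 430 2.0 arrays, 1 array per fraction and pool, per the labels' protocols, and used GeneSifter and a paired SAM analysis, per the series design. The deposited table holds 1 value for each of 45101 probe sets, taken as log2 signal from its range (0.035 to 13.06), since no header states the scale. The summarisation and normalization behind it are not given in the sources that were used. Array medians differed by 0.46, so after removal of 64 control probe sets the arrays were quantile normalized. Where 1 array has a narrow distribution, this step compresses the bright genes of the rest.

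Gene names follow the platform annotation held by GEO, checked by Entrez identifier in the RefSeq table of GRCm38.p6: 34945 had 1 symbol (34741 matched, 0 changed), 932 several and 9160 none, and none was named from several. Probe sets in the lower 40% by mean (log2 level 2.73) were not tested. Differences were fitted with limma 3.58.1 in R 4.3.3 (pool as block, Benjamini-Hochberg over 27022 probe sets). The mean estimates of the fit were checked on simulated data in which no array stood apart, so that this case was not covered. Intervals use the moderated variance, whose prior had 5.42 degrees of freedom, so that an interval can be wider than the spread of 3 close values.

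Pairs are the replicate numbers of the labels, and the series design is the source of the pairing, since it names a paired analysis. After subtraction of each group's mean, arrays with the same number correlated at 0.38, -0.19 and 0.35 in pools 1, 2 and 3, and arrays with different numbers at -0.47 to 0.42, so that these correlations alone do not show the pairing. The pools are separate and the block removes their levels. A p-value therefore sets the mean difference against how far the paired differences vary between pools, by the moderated variance. The fits without pool 1 and without pool 3 are exceptions. There all member probe sets tested had the same SE (1.24 and 1.29), so a p-value follows the size of the difference only.

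The members, the other gene lists and the tests were chosen with earlier results of these data known. Named were all members, up to 4 tested genes of lowest unadjusted p per list (not all are described) and the 5 genes most correlated with Bnc1 and with Wt1. One probe set per gene, that of highest mean, stood for genes of the lists. Alternatives changed the normalization, filter, block, weights, variance prior and the pools included. Promoter sequences come from RefSeq, with 7 of the 10 members matched by symbol.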

Additional observations from a re-analysis of the deposited data

How the results depend on the processing

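No probe set passed over all pools (661 at an unadjusted p under 0.05 with limma), and this held as deposited, median-centred, under no filter or a 20% filter, with an intensity trend, without the replicate block (542 at an unadjusted p under 0.05) and without the ALDH-negative array of pool 2. Leaving out 1 pool at a time gave 0 to 7 calls in all and 0 to 1 among the members. The latter was Bnc1 without pool 1, in a fit that gave the tested members the same SE. Array weights gave 2953 calls, 9 of them member probe sets (8 higher, 1 lower). This fit gave both arrays of a pool 1 weight, 4.87 in pool 3, 1.30 in pool 1 and 0.158 in pool 2, so that it rests mainly on pool 3. The 1 lower was Gata4 1418864_at, whose difference turned to -1.68 there, to -1.14 without pool 2, to -0.24 without the ALDH-negative array of pool 2 and to -1.18 when pools 1 and 3 were quantile normalized by themselves, an alternative chosen after seeing the data. With 1 pool left out at a time, that difference lay between -1.14 and 1.82, the one of Bnc2 1438861_at between -0.092 (without pool 1) and 0.78, and the one of Nr2f2 1416160_at between -1.02 (without pool 3) and 1.24. The cause of these reversals was not tested, and no other tested member probe set changed direction in the 12 alternatives. The block changed no call. Median-centring moved the median of tested probe sets to 0.22 (-0.04 after quantile normalization), and under it and as deposited no tested member changed sign. In place of the brightest probe set, the mean over the probe sets of a gene gave 1.08 for Bnc2 (0.42 by the brightest), 2.61 for Lhx9 (1.60), 0.98 for Gata4 (1.50), 1.27 for Gata6 (1.63) and 0.49 for Nr2f2 (1.00). As deposited, 14 member probe sets were higher in all pools (7.46% of all probe sets) and 11 did not overlap (2.17%). On that scale 1 dim set, Gata6 1443081_at, was lower in all pools (-0.30, -0.52 and -0.16). Signal near background limits the folds of Bnc1 and Lhx9 and leaves Lhx2 and Tcf21 without a measured difference.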
